A study of Homo sapiens with 4 samples.

Results

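The 32 genes described here belong to the Hippo pathway or are transcribed under its control. They were found by symbol in a table of 48162 genes, and each of the 32 symbols matched 1 row. By role they are 2 coactivators (YAP1 and WWTR1), 4 TEAD transcription factors, 2 VGLL cofactors, 7 genes of the kinase cassette, 6 upstream regulators and adaptors, and 11 targets. RNA-seq was carried out on cells labelled as MDA-MB-453, a human breast cancer cell line, in 2 groups of 2 libraries. The WT group is labelled as wild type and the TMEM9 KD group carries a knockdown of TMEM9, a membrane protein of the endosomal and lysosomal system. Both groups carry the same line's label, and no other agent is named for either. The means of the knockdown, and whether the cells are 1 clone or a pool, were not given in the sources used here. Nothing in the labels ties the 2 libraries of a group to separate cultures, so a p-value here measures the spread between libraries, which may be technical.

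In the Hippo pathway, the kinases MST1 and MST2 (genes STK4 and STK3) with their scaffold SAV1 activate LATS1 and LATS2, which work with MOB1. LATS kinases phosphorylate the coactivators YAP (gene YAP1) and TAZ (gene WWTR1), which are then held in the cytoplasm or degraded. When not phosphorylated, YAP and TAZ enter the nucleus and bind TEAD factors, which carry them to target genes such as CCN1 and CCN2. Several pathway regulators, among them LATS2, AMOTL2, AJUBA and NF2, are themselves known as targets and form a feedback. Control of YAP and TAZ is largely through phosphorylation and location, which RNA levels do not measure.

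Totals ran from 15323843 to 18517337 counts per library. The targeted gene, TMEM9, was counted 1120 and 1497 times in the WT libraries and 51 and 78 times after knockdown. Levels below are CPM (counts relative to a library total scaled with TMM factors), given for replicates 1 and 2 of each group in that order, and each group has n = 2. A gene was called where the quasi-likelihood test of edgeR gave an adjusted p below 0.05 over the 14923 genes tested. Of those genes 57.7% were called, 28.7% higher and 29% lower in TMEM9 KD, and the groups did not overlap in 77.6%.

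The labelled line was checked against markers. Of 15 luminal and apocrine genes, 10 passed the expression filter, 3 rose and 5 fell, and the list summed to 830.2 and 837 CPM in WT and 740.2 and 768 CPM in TMEM9 KD. CDH1, KRT19, SPDEF and TFAP2B were at no more than 0.401 CPM in any library, and PIP had 0 counts in all 4. FGFR4 fell from 35.0 and 35.5 CPM to 3.05 and 3.67 CPM, and DHRS2 rose from 1.40 and 1.56 CPM to 10.8 and 14.4 CPM. TRPS1 fell from 66.9 and 65.8 CPM to 31.9 and 32.4 CPM. FOXA1 rose from 2.94 and 2.73 CPM to 7.51 and 8.25 CPM. Of 12 fibroblast genes, 10 passed, 5 rose and 4 fell, and the list summed to 3420 and 3468 CPM in WT and 3383 and 3452 CPM in TMEM9 KD. VIM, the intermediate filament of mesenchymal cells, was at 1343 and 1356 CPM in WT and 1846 and 1745 CPM in TMEM9 KD, and COL1A1 at 815 and 832 CPM against 1299.9 and 1473 CPM. COL3A1 went the other way, from 947 and 966 CPM to 27.7 and 34.5 CPM, as did THY1, from 8.90 and 9.29 CPM to 0.977 and 0.974 CPM. The luminal keratin KRT8 was at 273 and 292 CPM in WT and 264 and 274 CPM in TMEM9 KD. The luminal markers KRT19, SPDEF, TFAP2B and PIP at or near 0, beside high VIM, go against the label. The identity of the cells, and that both groups are of 1 line, therefore rest on the labels.

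Leukocyte markers summed to 11.3 and 13.2 CPM in WT and 7.21 and 6.87 CPM in TMEM9 KD. Within that list CD14 was at 6.22 and 8.34 CPM against 0.733 and 1.66 CPM, and PTPRC at 2.27 and 2.78 CPM against 4.40 and 4.01 CPM. CSF1R was at 2.61 and 2.06 CPM in WT and 1.65 and 0.630 CPM in TMEM9 KD. CD3E, MS4A1 and LYZ had 0 counts. Endothelial markers summed to 14.9 and 14.1 CPM against 15.6 and 12.5 CPM, of which ERG made up 14.8 and 14.1 CPM against 14.5 and 11.1 CPM. The part of these marker genes in the results below was not tested, and in bulk RNA fewer cells of a type and less RNA per cell cannot be told apart.

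Of the 32 pathway genes, 31 passed the expression filter, and ANKRD1 did not. Among the 31, 16 were called higher and 7 lower in TMEM9 KD, or 74.2%, beside 57.7% of all genes tested. Their median log2 fold change was 0.24, against 0.01 over all genes tested. The groups did not overlap for 26 of the 31, beside 77.6% of all genes. Against a change of 1.5-fold, 10 were higher and 2 lower, where 7.44% and 11.3% of all genes were. By the estimate itself, 5 were called higher and 2 lower with a change of at least 2-fold, where 7.24% and 10.1% of all genes were. The roles did not move alike: upstream regulators had a median of 0.74 and targets 0.61, while the kinase cassette had a median of 0.01.

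**Figure D1:**
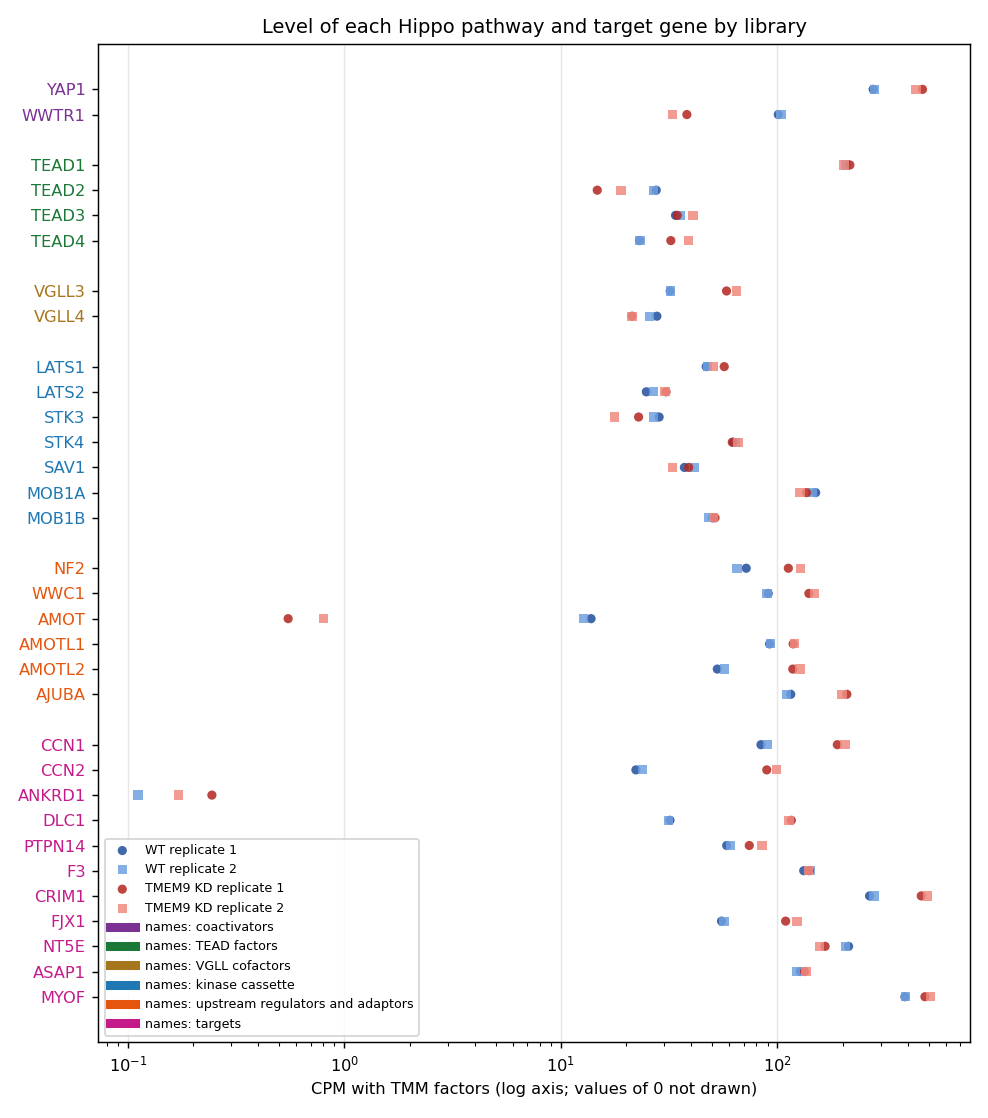
CPM (log axis) of each of the 32 genes in each library, with WT in blue and TMEM9 KD in red, circles for replicate 1 and squares for replicate 2, and gene names coloured by role. AMOT and ANKRD1 are the genes with values below 1 CPM, and the libraries of a group lie close together for most genes.

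The 2 coactivators went in opposite directions. YAP1 (ENSG00000137693) was at 277 and 280.3 CPM in WT and at 468 and 436 CPM in TMEM9 KD. Both knockdown libraries were above both WT libraries, a rise of 1.62-fold (log2 fold change 0.70, SE 0.056, edgeR adjusted p = 4.78e-20). WWTR1 (ENSG00000018408), which encodes TAZ, was at 100.9 and 104 CPM in WT and at 38.2 and 32.7 CPM in TMEM9 KD. It fell in both knockdown libraries, by 1.53 on the log2 scale (SE 0.082, edgeR adjusted p = 1.75e-31), a level 2.89-fold lower. Both calls also held against 1.5-fold, with edgeR adjusted p = 0.0326 for YAP1 and 1.54e-19 for WWTR1.

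To compare the 2 genes with each other, CPM was divided by the length of the gene model in kb. On this scale YAP1 made up 78.6% and 78.3% of the sum of both genes in WT, and 94.2% and 94.7% in TMEM9 KD. The sum of YAP1 and WWTR1 was 56.0 and 56.9 CPM per kb in WT and 78.9 and 73.2 CPM per kb in TMEM9 KD, so the summed level was higher in both knockdown libraries although WWTR1 fell. These shares and sums are descriptions with no test, and a share within a library does not depend on library scaling. Shares and sums over paralogs do depend on the gene lengths used. By counts, without lengths, YAP1 took 73.3% and 72.9% in WT and 92.5% and 93.0% in TMEM9 KD. WWTR1-AS1, an antisense gene that overlaps exons of WWTR1 in GENCODE 29, had 4 to 9 counts per library. Without a known strand setting its reads cannot be told apart from those of WWTR1.

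**Figure D2:**
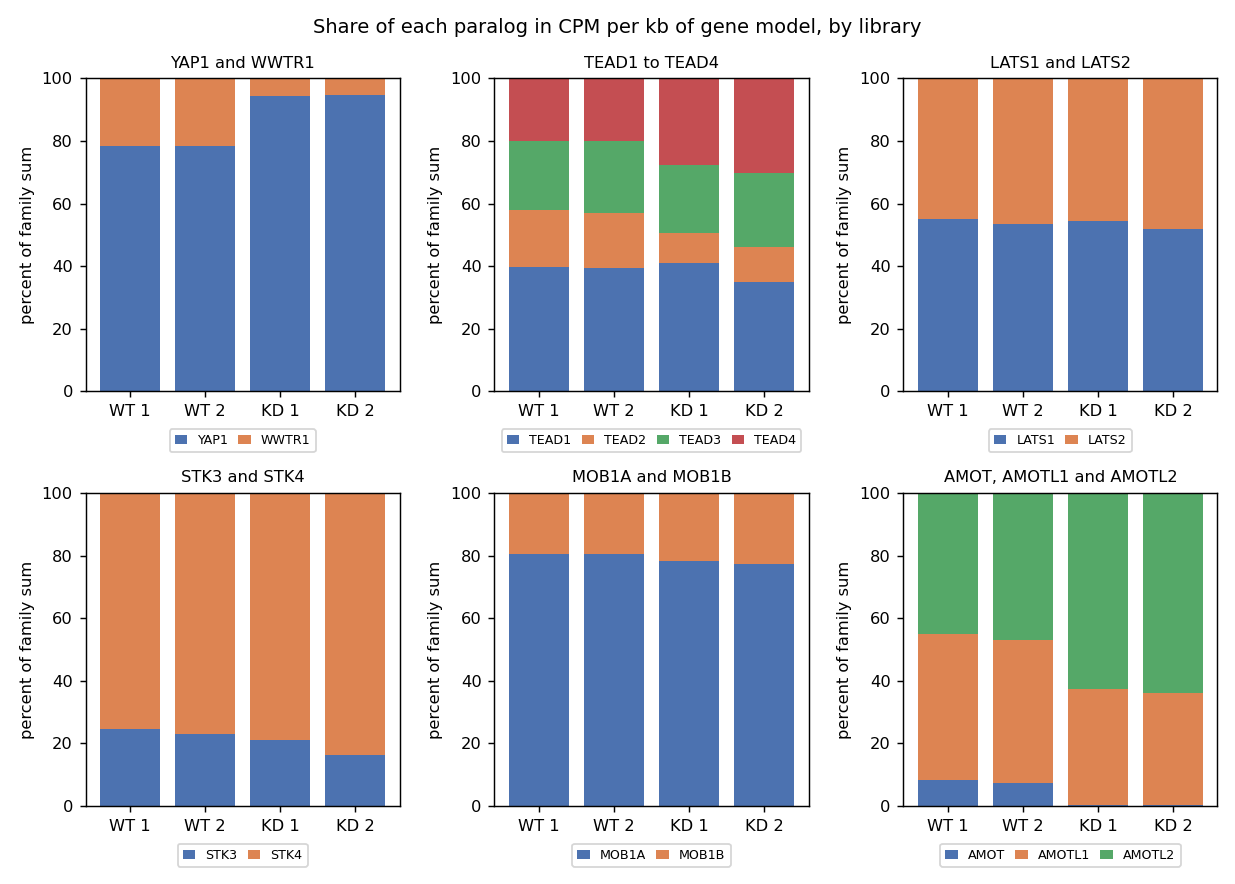
Each bar is 1 library and is divided by the percent that each paralog takes of its family's sum in CPM per kb (linear axis from 0 to 100). YAP1 takes 78.3% to 78.6% in WT and 94.2% to 94.7% in TMEM9 KD, and AMOT goes from 7.34% to 8.26% in WT to under 0.3% in TMEM9 KD.

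TEAD factors are the DNA-binding partners of YAP and TAZ. Of 4 tested, TEAD4 rose, TEAD2 fell, and TEAD1 and TEAD3 were not called. That is 50% called, beside 57.7% of all genes. TEAD1 was at 207 and 206 CPM in WT and 216 and 203 CPM in TMEM9 KD, so its groups overlapped (log2 fold change 0.02, 95% interval -0.10 to 0.14). TEAD3 was at 33.8 and 35.7 CPM against 34.4 and 40.8 CPM, with a log2 fold change of 0.11 (95% interval -0.08 to 0.31). Its value turned on 1 library: it was called higher without TMEM9 KD replicate 1 (log2 fold change 0.23, edgeR adjusted p = 0.0348) and was -0.022 without TMEM9 KD replicate 2, with adjusted p from 0.0348 to 1 over its alternatives.

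TEAD4 was at 23.1 and 23.2 CPM in WT and rose to 32.2 and 38.8 CPM in TMEM9 KD. Its groups did not overlap, and its log2 fold change was 0.62 (SE 0.11, edgeR adjusted p = 3.29e-07). TEAD2 was at 27.6 and 26.8 CPM in WT and fell to 14.7 and 19.0 CPM in TMEM9 KD, by 0.69 on the log2 scale (SE 0.12, edgeR adjusted p = 4.94e-07). Neither change passed the test against 1.5-fold. TEAD2 shares 319 exon bases in GENCODE 29 with CD37, a gene on the opposite strand that had 86 and 87 counts in WT and 32 and 38 in TMEM9 KD, beside 412 and 481 against 241 and 331 counts for TEAD2, and the part of CD37 in the TEAD2 counts was not tested.

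Per kb of gene model, TEAD1 led the family in each library, with 39.8% and 39.3% of its sum in WT and 40.9% and 34.9% in TMEM9 KD. By counts TEAD1 took more, 71.0% and 70.6% in WT and 72.6% and 67.3% in TMEM9 KD. Per kb, TEAD4 went from 20.1% in both WT libraries to 27.5% and 30.2%, and TEAD2 from 18.3% and 17.6% to 9.603% and 11.2%. In WT the 3 smaller members lay between 9.11 and 11.4 mean CPM per kb. In TMEM9 KD they spread out, to 5.65 for TEAD2, 12.4 for TEAD3 and 15.6 mean CPM per kb for TEAD4. The family sum was 50.7 and 50.9 CPM per kb in WT and 51.4 and 56.6 CPM per kb in TMEM9 KD.

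VGLL proteins bind TEAD factors at a surface that YAP and TAZ also use. VGLL3, a cofactor that can act with TEADs in place of YAP, was at 31.97 and 32.04 CPM in WT and rose to 58.2 and 64.6 CPM in TMEM9 KD (log2 fold change 0.94, SE 0.089, edgeR adjusted p = 2.26e-16). VGLL4, a repressor that competes with YAP for TEADs, was at 27.8 and 25.6 CPM in WT and 21.3 CPM in both knockdown libraries. The groups of VGLL4 did not overlap and it fell by 0.32 on the log2 scale (SE 0.11, edgeR adjusted p = 0.01). Its call ended under DESeq2 (adjusted p = 0.052) and without WT replicate 1 (edgeR adjusted p = 0.133), within a range of 0.01 to 1 over its alternatives. VGLL4 shares 1596 exon bases with the autophagy gene ATG7 on the opposite strand, which had 760 and 869 counts in WT and 748 and 848 in TMEM9 KD. VGLL4 itself had 415 and 461 counts in WT and 349 and 372 in TMEM9 KD. The part of ATG7 in the VGLL4 counts was not tested. VGLL1 had 0 counts in all 4 libraries, and VGLL2 had 0 in WT and at most 0.286 CPM in TMEM9 KD.

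In the kinase cassette, changes were small where there were any. Of 7 genes tested, LATS2 was called higher, STK3 and MOB1A were called lower, and 4 were not called, which is 42.9% called beside 57.7% of all genes. No gene of the cassette passed the test against 1.5-fold. STK3, the kinase MST2, was at 28.4 and 26.7 CPM in WT and fell to 22.8 and 17.6 CPM in TMEM9 KD, by 0.45 on the log2 scale (SE 0.12, edgeR adjusted p = 0.000544). Its paralog STK4, the kinase MST1, was at 62.6 and 64.1 CPM against 61.9 and 65.8 CPM, with overlapping groups (log2 fold change 0.01, 95% interval -0.15 to 0.17). Per kb, STK3 went from 24.6% and 23.1% of the sum of both genes in WT to 21.0% and 16.2% in TMEM9 KD.

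LATS2, a kinase of YAP and TAZ, was at 24.8 and 26.7 CPM in WT and 30.6 and 30.2 CPM in TMEM9 KD (log2 fold change 0.24, SE 0.10, edgeR adjusted p = 0.0451). The call ended in 9 of 13 alternatives, with an adjusted p of 0.00765 to 1 over the 13. Dropping any 1 library was enough to end it, as edgeR adjusted p was 0.313 without WT replicate 1, 0.104 without WT replicate 2, 0.0716 without TMEM9 KD replicate 1 and 0.0706 without TMEM9 KD replicate 2. It also ended with the replicate number as a block (edgeR adjusted p = 0.0511). LATS1 was at 46.9 and 47.7 CPM against 56.8 and 50.6 CPM and was not called (log2 fold change 0.18, SE 0.086, edgeR adjusted p = 0.061), though its groups did not overlap. Without TMEM9 KD replicate 2 it was called higher (edgeR adjusted p = 0.00704), as it was with library size as the only scaling (0.00735), in a range of 0.00704 to 1 over its alternatives. LATS1 and LATS2 shared their sum per kb almost evenly, with LATS1 between 51.9% and 54.9% in the 4 libraries. By counts LATS1 took more, between 62.6% and 65.4%.

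The MOB1 proteins are coactivators of LATS kinases. MOB1A was at 150.2 and 146 CPM in WT and 136 and 127 CPM in TMEM9 KD, a fall of 0.17 on the log2 scale (SE 0.066, edgeR adjusted p = 0.0235). The call ended without WT replicate 1 (edgeR adjusted p = 0.26), without WT replicate 2 (0.129) and with library size as the only scaling (0.222), and adjusted p ran from 0.00035 to 1 over its alternatives. MOB1B was at 50.03 and 48.1 CPM against 51.5 and 50.5 CPM (log2 fold change 0.06, 95% interval -0.11 to 0.22). MOB1A and MOB1B are close in sequence, so reads may have been split between them. MOB1B also shares 199 exon bases with DCK on the same strand. DCK had 632 and 731 counts in WT and 866 and 822 in TMEM9 KD, beside 748 and 865 against 843 and 881 for MOB1B. The part of DCK in the MOB1B counts was not tested. SAV1, the scaffold of MST kinases, was at 37.2 and 41.5 CPM against 38.9 and 32.7 CPM with overlapping groups (log2 fold change -0.14, 95% interval -0.33 to 0.05). Without TMEM9 KD replicate 1, SAV1 was called lower (log2 fold change -0.26, edgeR adjusted p = 0.0193, range 0.0193 to 1).

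**Figure D3:**
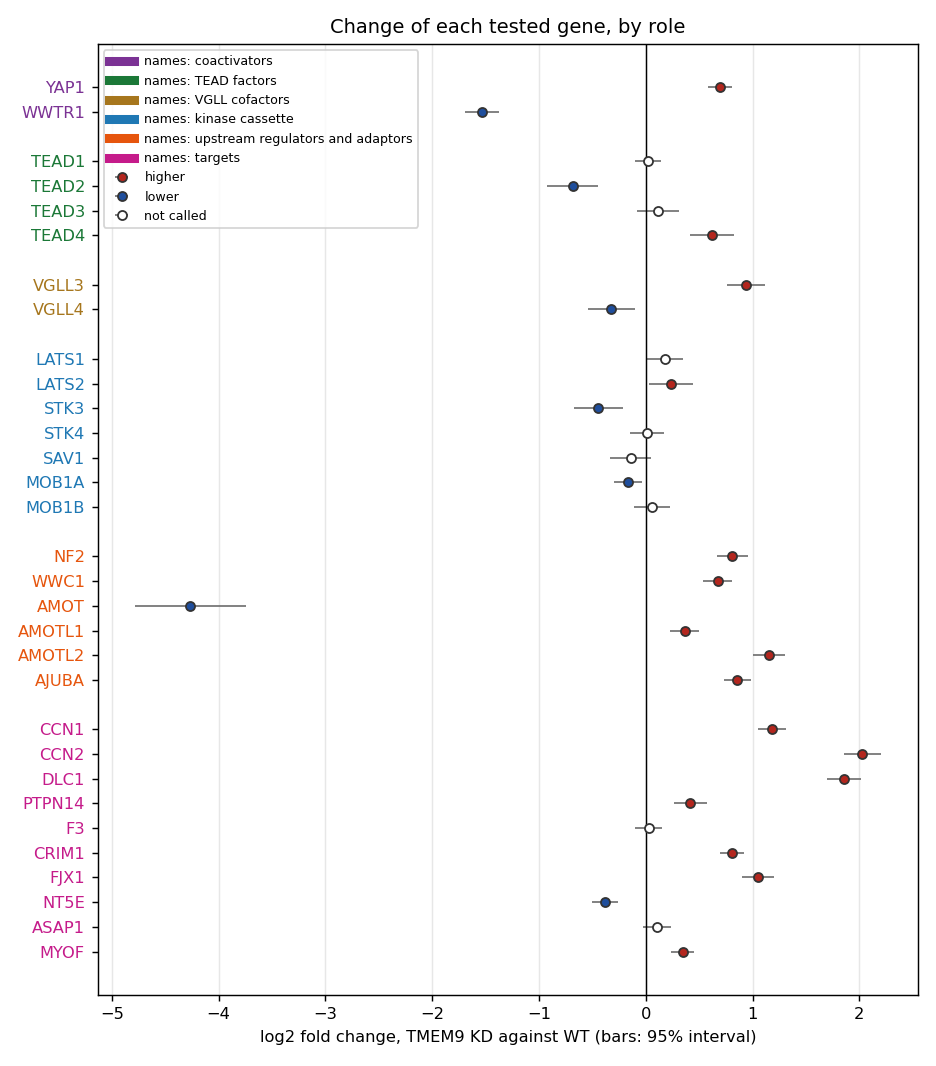
Fitted log2 fold change of TMEM9 KD against WT for the 31 tested genes with unadjusted 95% intervals, filled red where called higher, blue where called lower and white where not called. Kinase cassette genes lie between -0.45 and 0.24, and AMOT at -4.27 is farthest from 0.

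Each of the 6 upstream regulators and adaptors was called, 5 higher and 1 lower, where 28.7% of all genes were called higher and 29% lower. NF2 encodes merlin, which recruits LATS kinases to the membrane. It was at 71.8 and 65.0 CPM in WT and rose to 112 and 127 CPM in TMEM9 KD (log2 fold change 0.81, SE 0.074, edgeR adjusted p = 2.67e-17). WWC1 encodes KIBRA, a partner of merlin, and rose from 90.7 and 89.5 CPM to 139.7 and 148 CPM (log2 fold change 0.68, SE 0.068). AJUBA, a LIM protein that inhibits LATS kinases, rose from 115 and 110.3 CPM to 209 and 199 CPM (log2 fold change 0.86, SE 0.064). NF2 and AJUBA also passed the test against 1.5-fold, and WWC1 did not (edgeR adjusted p = 0.133).

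Angiomotins bind YAP and hold it at junctions and actin, and the 3 members of the family split. AMOT (ENSG00000126016) had 206 and 228 counts in WT and 9 and 14 in TMEM9 KD, or 13.8 and 12.7 CPM against 0.55 and 0.802 CPM. It fell by 4.27 on the log2 scale (SE 0.26, edgeR adjusted p = 2.21e-27), a level 19.2-fold lower. AMOTL2 rose from 52.8 and 57.1 CPM to 118 and 127 CPM (log2 fold change 1.16, SE 0.075, edgeR adjusted p = 6.81e-26). AMOTL1 rose less, from 92.0 and 93.2 CPM to 118 and 120.4 CPM (log2 fold change 0.37, SE 0.069). Per kb, AMOT held 8.26% and 7.34% of the family sum in WT and 0.205% and 0.283% in TMEM9 KD. AMOTL1 and AMOTL2 were close in WT, at 46.8% and 45.7% against 45.0% and 47.0%, while in TMEM9 KD AMOTL2 took 62.4% and 63.8%. The sum of the 3 genes was 19.6 and 20.3 CPM per kb in WT and 31.5 and 33.4 CPM per kb in TMEM9 KD.

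Among targets, 10 of 11 were tested, of which 7 rose, NT5E fell, and F3 and ASAP1 were not called. That is 8 of 10 called, or 80%, beside 57.7% of all genes. The genes with the largest increases were CCN2 and DLC1. CCN2 encodes CTGF, a secreted matricellular protein, and CCN1 encodes CYR61 of the same family. Both are widely used as readouts of YAP and TAZ. CCN2 is shown by its promoter because TEAD sites in it are well studied, and ANKRD1, another standard target, is shown beside it because its RNA was nearly absent. Both windows are RefSeq sequences of GRCh38.p14 from 250 bases before to 50 bases after the start of transcription, 5′ to 3′ on the gene's strand. Capitals mark GGAATG, the core TEAD motif, which was searched on both strands (CATTCC on the other). The CCN2 window is chr6:131951323-131951622 on the minus strand and the ANKRD1 window is chr10:90921038-90921337 on the minus strand.

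CCN2: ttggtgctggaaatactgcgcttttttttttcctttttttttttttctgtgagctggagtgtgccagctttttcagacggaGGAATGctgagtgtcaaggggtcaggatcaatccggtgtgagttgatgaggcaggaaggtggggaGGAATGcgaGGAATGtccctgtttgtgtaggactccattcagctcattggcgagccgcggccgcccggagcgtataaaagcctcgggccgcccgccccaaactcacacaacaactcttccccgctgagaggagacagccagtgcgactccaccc

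ANKRD1: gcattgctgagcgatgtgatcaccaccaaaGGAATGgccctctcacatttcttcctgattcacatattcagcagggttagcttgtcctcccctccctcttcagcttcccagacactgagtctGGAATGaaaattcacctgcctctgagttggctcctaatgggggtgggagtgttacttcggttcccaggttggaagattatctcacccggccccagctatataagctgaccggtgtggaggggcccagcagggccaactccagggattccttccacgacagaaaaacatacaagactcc

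The CCN2 window held 3 matches, which begin 169, 104 and 95 bases before the start. At least 3 matches were found in 0.128% of 35116 promoter windows of this length, and at least 1 in 14%. The ANKRD1 window held 2, beginning 220 and 128 bases before the start, as at least 2 were found in 1.37% of windows. For 25 of the 32 genes 36 windows were found, and 7 of these held a match, those of YAP1, LATS2, AMOTL2, AJUBA, CCN2, ANKRD1 and PTPN14. That is 19.4% of the windows beside 14% of all windows, and no factor's binding was measured. Of the 7 targets with a window, 3 held a match, and those of F3, FJX1, NT5E and MYOF held 0. No window was found for the targets CCN1, DLC1, CRIM1 and ASAP1.

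CCN2 (ENSG00000118523) was at 22.2 and 23.8 CPM in WT and at 89.3 and 98.8 CPM in TMEM9 KD, 4.08-fold higher (log2 fold change 2.03, SE 0.088, edgeR adjusted p = 5.37e-38). CCN1 was at 83.9 and 89.8 CPM in WT and at 189 and 205 CPM in TMEM9 KD, 2.27-fold higher (log2 fold change 1.18, SE 0.067, edgeR adjusted p = 1.56e-29). In both genes the knockdown libraries lay well above WT and close to each other. ANKRD1 encodes a nuclear ankyrin repeat protein and had 0 and 2 counts in WT and 4 and 3 in TMEM9 KD. The ratio of ANKRD1 was 3.41 with an exact 95% counting interval of 0.649 to 33.6, so a difference was not detectable at this depth. The interval covers counting error only.

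DLC1, a GTPase-activating protein known as a tumour suppressor, was at 31.9 and 31.3 CPM in WT and at 116 and 113 CPM in TMEM9 KD (log2 fold change 1.86, SE 0.081, edgeR adjusted p = 4.98e-38). FJX1, a kinase relative of the Golgi that has a fly counterpart acting on Fat and Dachsous, rose from 55.2 and 56.7 CPM to 109 and 123 CPM (log2 fold change 1.05, SE 0.075). CRIM1, a membrane protein that binds BMP ligands, rose from 267 and 279 CPM to 462 and 494 CPM (log2 fold change 0.81, SE 0.057). These 3 genes, CCN1 and CCN2 were the 5 targets that passed the test against 1.5-fold.

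Smaller increases were found for PTPN14 and MYOF. PTPN14, a phosphatase that also binds YAP and restrains it, rose from 58.3 and 60.8 CPM to 74.1 and 84.8 CPM (log2 fold change 0.42, SE 0.079). MYOF, a membrane repair protein, rose from 388 and 392 CPM to 480.0 and 511 CPM (log2 fold change 0.35, SE 0.055). NT5E, the ectoenzyme CD73, went the other way, from 213 and 207 CPM in WT to 166 and 156 CPM in TMEM9 KD, a fall of 0.38 on the log2 scale (SE 0.062, edgeR adjusted p = 1.04e-07).

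F3 encodes tissue factor, which starts blood clotting. It was at 132 and 142 CPM in WT and 140.3 and 139.7 CPM in TMEM9 KD, with overlapping groups and a log2 fold change of 0.03 (95% interval -0.10 to 0.16). ASAP1, an ArfGAP, was at 128 and 123 CPM against 133 and 135 CPM, where the groups did not overlap but the change was not called (log2 fold change 0.10, 95% interval -0.03 to 0.23). With library size as the only scaling ASAP1 was called higher (log2 fold change 0.18, edgeR adjusted p = 0.0177, range 0.0177 to 1 over its alternatives).

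Order by level per kb differed between the groups. In WT the highest mean levels were those of F3 at 47.8, NT5E at 46.3, MYOF at 46.0 and YAP1 at 44.2 CPM per kb, with CRIM1 at 38.3 and CCN1 at 35.4. In TMEM9 KD CCN1 led at 80.3, followed by YAP1 at 71.8, CRIM1 at 67.1, MYOF at 58.5, F3 at 48.7 and FJX1 at 47.4 CPM per kb, and CCN2 went from 9.84 in WT to 40.2. The ranking of neighbours such as NT5E and MYOF in WT was not tested.

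**Figure D4:**
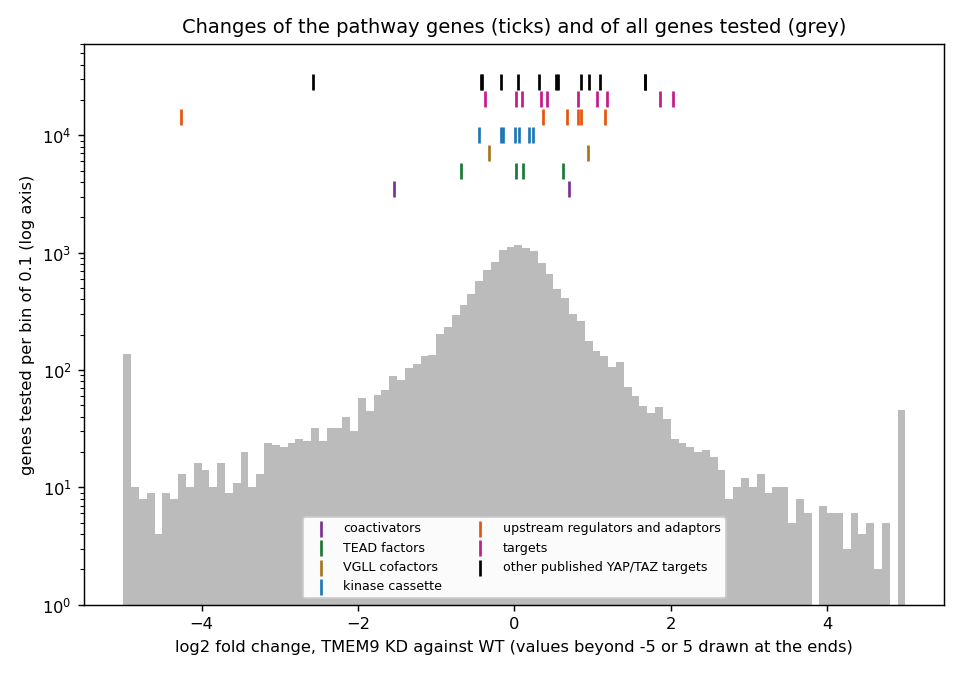
Grey bars count the 14923 genes tested by log2 fold change of TMEM9 KD against WT (log count axis), and ticks above mark single genes, coloured by role. Ticks of targets and of other published targets lie mostly right of 0, where the median of all genes is 0.01, while the kinase cassette stays near 0.

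Further genes of the pathway were taken from lists chosen by function. Of 13 other published targets of YAP and TAZ, all passed the filter, 8 rose and 3 fell, with a median log2 fold change of 0.53 and 84.6% called, beside 57.7% of all genes. AXL, a receptor kinase, was at 222 and 235 CPM in WT and 717 and 744 CPM in TMEM9 KD (log2 fold change 1.68). EDN1, the peptide endothelin 1, rose from 4.41 and 5.45 CPM to 14.8 and 16.7 CPM (log2 fold change 1.67), and THBS1, the matrix protein thrombospondin 1, from 242 and 263 CPM to 516 and 561 CPM (log2 fold change 1.09). IGFBP3, which binds insulin-like growth factors, fell from 65.3 and 63.9 CPM to 10.5 and 11.2 CPM. The count that fell was 2 in place of 3 with library size only, without a filter, under DESeq2 and under limma. It was also below 3 in each fit without 1 library.

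Among other kinases that feed into LATS or resemble MST and LATS, 14 of 15 were tested, 1 rose and 7 fell (median -0.14). The share called was 57.1%, close to the 57.7% of all genes. TNIK, a kinase of the MAP4K group, fell from 50.6 and 48.1 CPM to 20.7 and 20.3 CPM, and its relative MINK1 from 65.1 and 60.7 CPM to 41.4 and 44.2 CPM. STK26 fell from 7.76 and 8.29 CPM to 3.24 and 2.12 CPM, and STK24 from 134 and 140.02 CPM to 95.2 and 93.0 CPM. In the STRIPAK complex, a phosphatase assembly that acts against MST kinases, 3 of 14 rose and 3 fell (median -0.03), which is 42.9% called and below the 57.7% of all genes. PDCD10 fell by 0.52 and STRIP2 rose by 0.46 on the log2 scale. MOB4 fell by 0.32 and CTTNBP2NL rose by 0.31, but the call of MOB4 ended without WT replicate 2 (edgeR adjusted p = 0.401), without TMEM9 KD replicate 2 (0.197), under DESeq2 (0.0855) and with library size only (0.0516), in a range of 0.000241 to 1, and that of CTTNBP2NL without WT replicate 1 (0.0819, range 4.26e-05 to 1).

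Of 24 genes of polarity, junctions and FAT cadherins, 21 were tested, 10 rose and 6 fell (median 0.25), or 76.2% called beside 57.7% of all genes. FRMD6, a FERM protein that acts upstream of the MST kinases, rose from 79.1 and 78.9 CPM to 174 and 180.1 CPM (log2 fold change 1.17). The large cadherins split: FAT2 fell from 12.7 and 12.5 CPM to 0.794 and 0.745 CPM, while FAT3 had 0 and 1 counts in WT and 45 and 34 in TMEM9 KD, a ratio of 76.9 (exact 95% counting interval 13.4 to 3075). WTIP, a relative of AJUBA, was at 0.201 and 1.45 CPM in WT and 4.03 and 4.58 CPM in TMEM9 KD, and its call ended under DESeq2 (adjusted p = 0.0759, the highest of its alternatives, the lowest being 3.45e-12). RASSF proteins are scaffolds that bind MST kinases, and 4 of the 5 matched were tested. RASSF4 fell from 20.1 and 20.3 CPM to 1.71 and 2.64 CPM and RASSF6 from 3.41 and 4.12 CPM to 0.977 and 0.573 CPM. RASSF1 rose from 18.0 and 19.5 CPM to 30.1 and 35.3 CPM, and RASSF3 from 24.9 and 25.5 CPM to 35.0 and 29.6 CPM, though RASSF3 was not called without TMEM9 KD replicate 1 (edgeR adjusted p = 0.0698, range 0.000108 to 1).

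**Figure D5:**
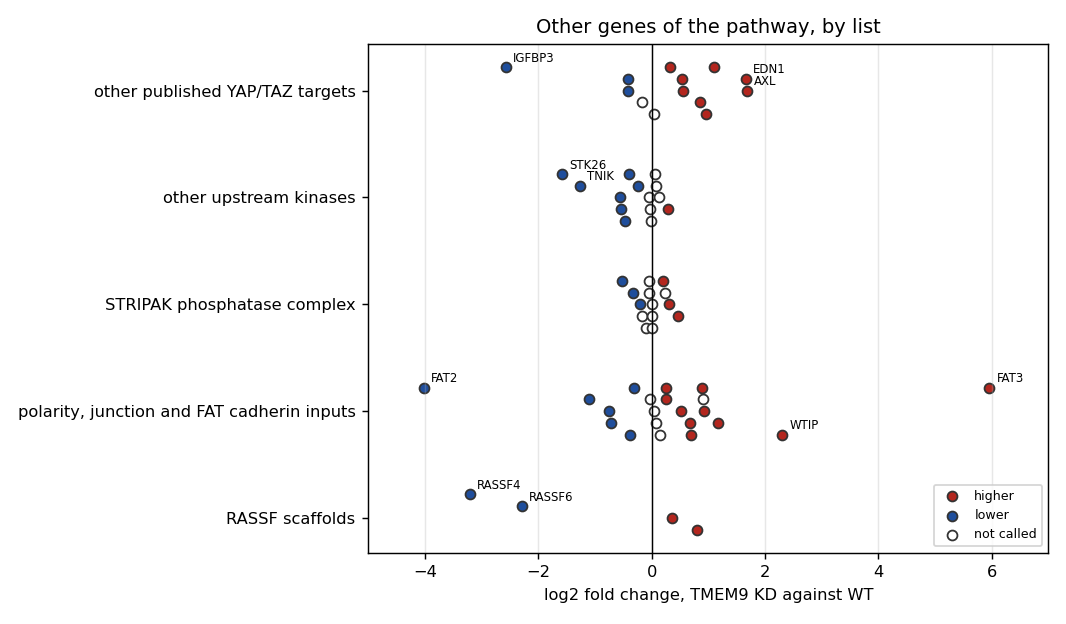
Fitted log2 fold change of TMEM9 KD against WT for tested genes of 5 further lists, 1 point per gene, filled red where called higher, blue where called lower and white where not called. Points of a list are offset vertically for legibility, and names are given for changes beyond 1.2.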

How the data were processed

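The authors deposited raw counts per gene in 4 columns. Bowtie 0.12.2, CASAVA, mm8 and hg19 appear, without their roles, in the processing notes of the submitters. The counting tool, annotation and strand setting were not given in the sources used here. Symbols came from a table of gene IDs (45342 of 48162 genes, 304 of them from GENCODE 29), and 147 of 149 list entries matched. Gene lengths are unions of GENCODE 29 exons on GRCh38, which may not be the build of the counts, so only lengths and overlaps were used.

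The main test was edgeR 4.0.16 in R 4.3.3 (glmQLFTest, TMM factors, filterByExpr with a minimum count of 10 and total of 15), with group as the only term and 2 residual degrees of freedom. Adjustment was by Benjamini-Hochberg, threshold 0.05. SE was obtained by dividing the size of the log2 fold change by the root of F. The script was tested on simulated data. Libraries of a group differed by more than sampling noise (chi-square over degrees of freedom 2.04 and 4.82) and were kept as replicates.

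Members and lists were chosen with earlier results of these data known. The rule named TMEM9, the 32 members, and up to 4 called genes of largest change per list. VGLL1, VGLL2, KRT8, VIM, COL1A1, COL1A2, PDGFRA, POSTN, TCF21, ERG and markers at or near 0 were named after their values were seen. Alternatives were other scaling, filters and tests (DESeq2 1.42.0, limma 3.58.1), a block for replicate number, and fits with 1 library dropped.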

Additional observations from a re-analysis of the deposited data

How the results depend on the processing

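Of 31 tested members, 21 kept their direction and their side of the threshold in the 12 alternatives other than the test against 1.5-fold, and no called member reversed in any of the 13. Against 1.5-fold, 1111 of all genes were higher and 1692 lower, 10 members were higher and 2 lower, 0 targets were lower, 10 other pathway genes were higher and 7 lower, and 5 other published targets were higher and 1 lower. That test asks for a larger change by construction. Among members that were not called, TEAD1, TEAD3, STK4 and F3 changed sign without 1 library. LATS1, SAV1, MOB1B and ASAP1 kept their sign in all alternatives. Over fits without 1 library, log2 fold changes of TEAD1 ran from -0.0194 (without TMEM9 KD replicate 1) to 0.0586. Those of TEAD3 ran from -0.022 (without TMEM9 KD replicate 2) to 0.235. They ran from -0.043 (without TMEM9 KD replicate 2) to 0.0595 for STK4, and from -0.0313 (without WT replicate 1) to 0.0752 for F3. STK4 was also at -0.0122 without WT replicate 1. The cause was not tested.

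Leaving out 1 library gave 15 to 16 members higher and 5 to 8 lower, 7 to 7 targets higher and 1 to 1 lower, and 18 to 26 other pathway genes higher and 17 to 21 lower. It gave 7 to 8 other published targets higher and 1 to 2 lower, and 3172 to 4173 of all genes higher and 3450 to 4405 lower. A group left with 1 library is assumed to vary like the other.

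With the replicate number as a block, 15 members were higher and 7 lower, and 4171 of all genes were higher and 4266 lower. Same-numbered libraries did not deviate together (correlation of deviations 0.00144 across genes), so the numbers are not taken as a pairing. With library size as the only scaling, 18 members were higher and 6 lower. Over all genes, 5030 were then higher and 3730 lower, and the median log2 fold change was 0.08 in place of 0.01. Depth limits ANKRD1, VGLL1 and VGLL2.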
